A study of Talinum fruticosum with 24 samples.

Results

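A small set of leaf transcripts differed between leaves sprayed with abscisic acid (ABA) and mock-sprayed leaves in the afternoon and much less at the harvests before and after it. The set holds 13 features of 16461 with a mean of at least 10 counts, out of 20617 with a count in at least 1 library. Features were chosen from the same counts that are described here. For each harvest, d is the mean log2(CPM + 1) of the ABA libraries minus that of the mock libraries, where CPM is counts scaled to a common library total with TMM factors for composition. A feature entered when d was at least 1 at 320 min, both ABA libraries of 320 min lay above both mock libraries, and d was smaller than 0.5 in size at each of the other 5 harvests. Every value of d and every comparison of ABA with mock leaves below was therefore used in the choice and is a description.

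The plants were waterleaf, Talinum triangulare (Talinum fruticosum in the sample labels), 2 months old and kept in 12 h of light and 12 h of darkness. Leaves were sprayed with 200 µM ABA or with a mock solution, both carrying methanol and Tween-20, 4 h into the light period and again 4 h later. The 6 harvests are named by the time since the first spray, 40, 80 and 160 min followed by 320, 640 and 1280 min. Every group of 1 treatment and 1 harvest (12 in all) had 2 libraries from 2 plants, and the 2 treated leaves of a plant were combined. The 320 min harvest, called afternoon here, came 80 min after the second spray and 9.33 h after lights on. Its neighbours were the 160 min harvest, 6.67 h after lights on, and the 640 min harvest, in the dark for 2.67 h. By 1280 min the lights had been on again for 1.33 h. Time of day, time since the first spray and the second spray cannot be told apart at 320 min.

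ABA is the hormone through which plants signal water shortage. It binds receptors that inhibit a class of protein phosphatases, which frees kinases that act on ion channels of the guard cells and on transcription factors, and leaves respond by closing stomata and by changing the transcripts of many genes. Many leaf transcripts also follow the time of day through light and the circadian clock, so an ABA effect in a time course is read against a moving mock level. In this species drought can bring on crassulacean acid metabolism, in which carbon dioxide is fixed at night. The files give identifiers without gene names, no sequences or annotation were used, and the leaf label could not be checked against marker genes. The functions of the 13 features are therefore not known here, and they are described by behaviour. Library totals ran from 16577222 to 26846579 counts. Over the 24 libraries the 13 features had means from 12.0 to 4552 counts, so the precision of single values differs widely among them. In whole leaves, fewer cells of a type and less RNA per cell cannot be told apart.

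**Figure D1:**
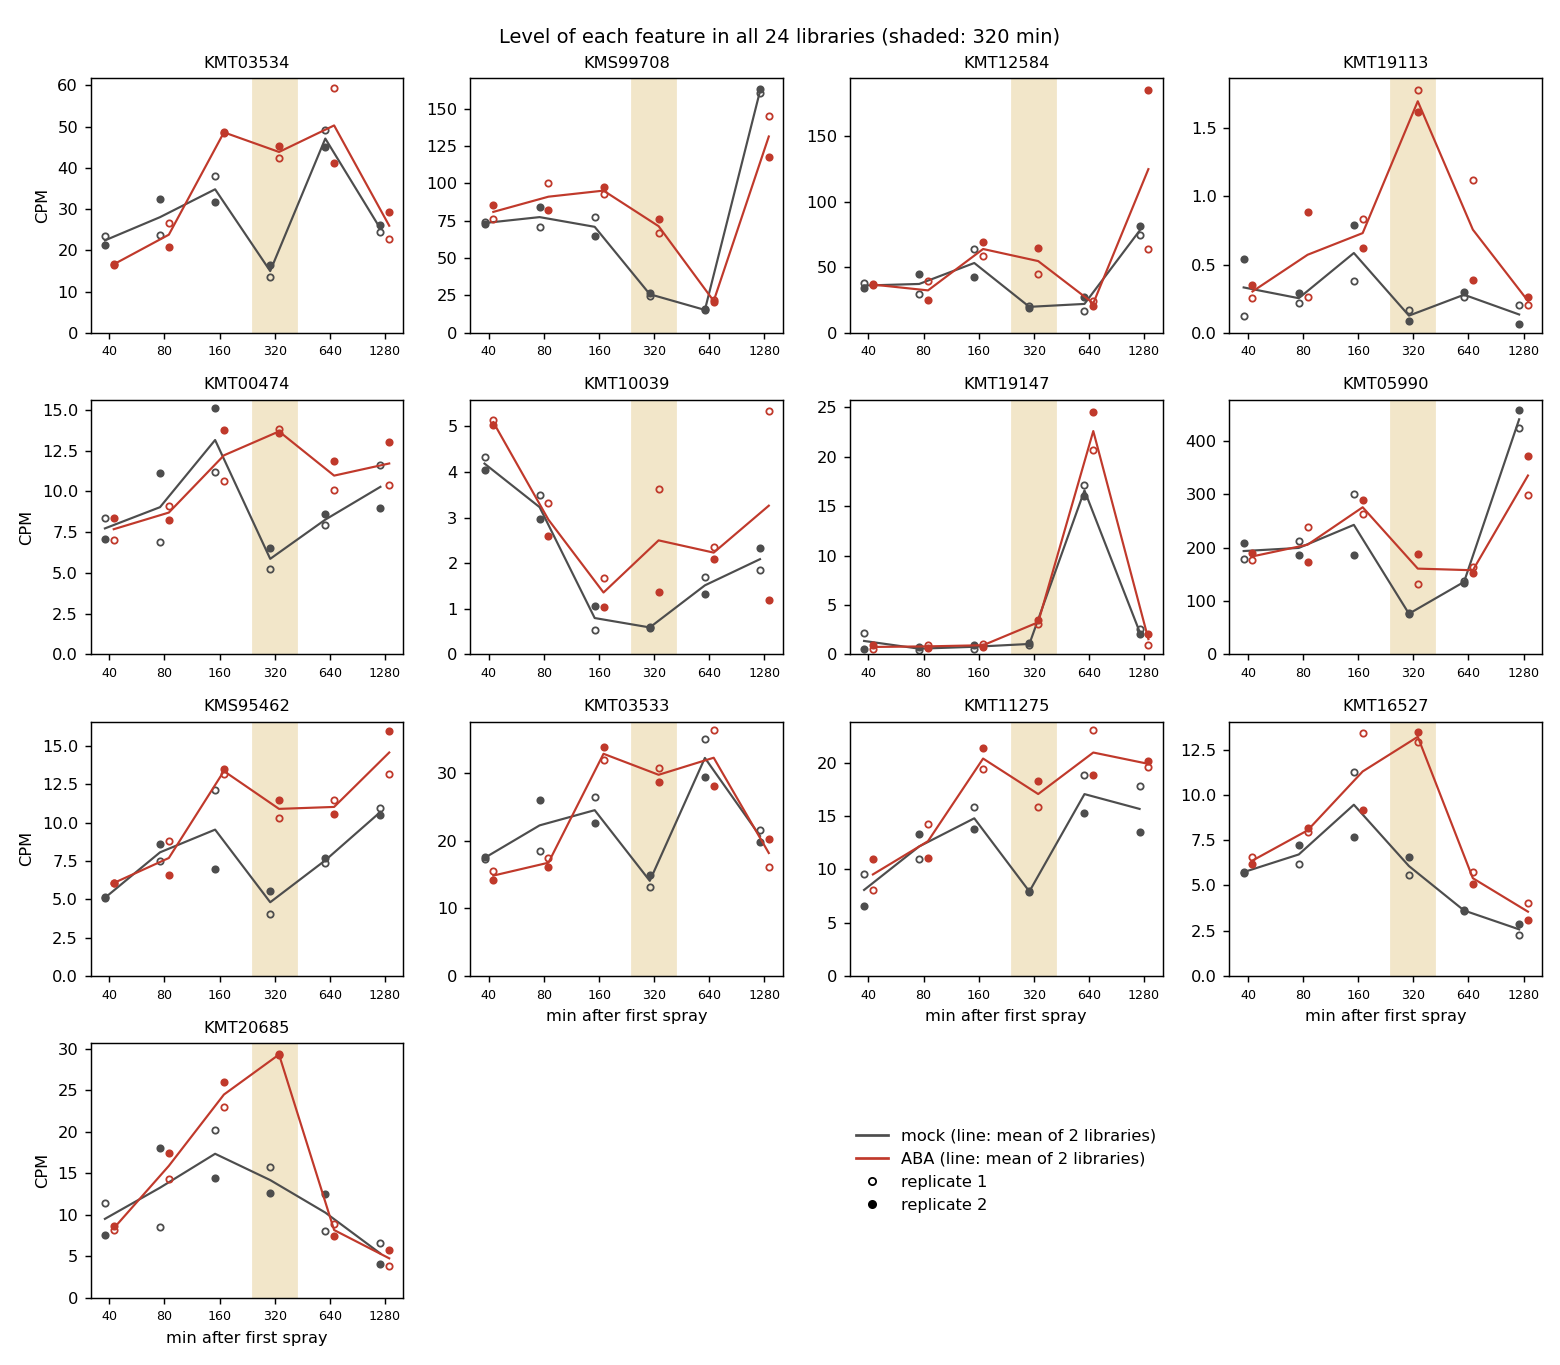
Level in CPM (linear axis from 0) of each of the 13 features in every library, by harvest in min after the first spray, ordered by d at 320 min. Open and filled circles are replicates 1 and 2, lines join the means of the 2 libraries, grey is mock and red is ABA. In 9 of the 13 panels the mock line has its lowest point at 320 min, where 18.2% of all features did. In 4 panels the ABA line has its highest point there, KMT20685 and KMT19113 among them, where 18.8% of all features did.

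At 320 min d ran from 1.01 to 1.497 over the 13 features, with a median of 1.05, and 4 features exceeded 1.2. The lowest ABA library lay above the highest mock library by between 0.57 and 1.31 on the log2(CPM + 1) scale. All 13 were higher with ABA at 320 min by edgeR's quasi-likelihood test at an adjusted p below 0.05, where 13.6% of the 17561 tested features were called higher. The rule used that contrast, so nothing is read from this count.

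The largest difference at 320 min belonged to KMT03534. Its mock libraries held 13.4 and 16.5 CPM at 320 min, and its ABA libraries 42.4 and 45.2 CPM (d = 1.497). At 160 min the mock libraries had held 37.9 and 31.6 CPM and the ABA libraries 48.8 and 48.4 CPM, and at 640 min they held 49.2 and 45.0 CPM against 59.4 and 41.2 CPM. Mock leaves thus had a low point between 2 higher harvests, at which ABA leaves stayed near their midday and night levels. At 40 min the mock libraries held 23.6 and 21.2 CPM and the ABA libraries 16.4 and 16.8 CPM (d = -0.41), so the order of the groups was the opposite in the first harvest.

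KMS99708 followed with d = 1.43 at 320 min. Its mock libraries went from 77.3 and 64.4 CPM at 160 min to 24.7 and 26.8 CPM at 320 min and 15.6 and 14.9 CPM at 640 min. The ABA libraries held 93.0 and 97.2 CPM at 160 min, 66.7 and 75.8 CPM at 320 min, and 21.6 and 20.9 CPM at 640 min. Both groups were low at night, and the ABA leaves reached the low level later than the mock leaves. In the next morning all 4 libraries were at their highest, between 118 and 163 CPM, with the mock libraries on top.

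KMT05990, the feature of the set with the most counts, showed the same low point in mock leaves. It held 75.6 and 77.0 CPM in mock and 133 and 189 CPM in ABA leaves at 320 min (d = 1.04). At 160 min the values were 300.2 and 186 CPM in mock and 263 and 289 CPM in ABA leaves, so the groups overlapped, and at 640 min they were 138 and 134 CPM against 163 and 152 CPM. Here ABA leaves were lower at 320 than at 160 min as well, but less so than mock leaves.

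KMT20685 had the other form, with ABA leaves highest at 320 min, slightly above 160 min and well above the night. Mock libraries held 20.2 and 14.5 CPM at 160 min, 15.7 and 12.7 CPM at 320 min and 8.07 and 12.5 CPM at 640 min. The ABA libraries held 23.0 and 26.0 CPM at 160 min, 29.3 and 29.4 CPM at 320 min and 8.85 and 7.46 CPM at 640 min. Its d of 1.01 was the smallest of the set, and at night the groups overlapped.

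KMT19147 differed from the rest in the size of its rise into the night. At 320 min its mock libraries held 0.987 and 1.13 CPM (24 and 26 counts) and its ABA libraries 3.04 and 3.47 CPM (94 and 88 counts), with d = 1.05. At 160 min the mock libraries held 0.592 and 0.951 CPM and the ABA libraries 1.08 and 0.780 CPM, and at 640 min they held 17.2 and 16.0 CPM against 20.7 and 24.5 CPM. ABA leaves were thus part of the way to the night level at 320 min, when mock leaves were still near their midday level. It was the only feature of the 13 in which mock leaves were not lower at 320 than at 160 min.

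At 320 min the fitted fold change and d lay furthest apart in 2 features with low counts. At 320 min KMT19113, named after its values were seen, was counted 4 and 2 times in mock leaves against 55 and 41 times in ABA leaves, a log2 fold change of 3.70 ± 0.69 (standard error, SE) in the edgeR fit but d = 1.26. At 640 min its ABA libraries held 37 and 13 counts and its mock libraries 7 and 9, a fitted log2 fold change of 1.42 ± 0.61 beside d = 0.43, so it met the bound of 0.5 on the scale of the rule and not on the fitted scale. The 22 other libraries alone would average fewer than 10 counts, so KMT19113 passed the minimum of the rule only through the ABA libraries of 320 min, and its fold is no support for a change. KMT10039 was counted 14 and 14 times in mock and 112 and 35 times in ABA leaves at 320 min, a fitted log2 fold change of 2.09 ± 0.57 beside d = 1.06. Without ABA replicate 1 of 320 min that fold change was 1.22 and d was 0.58. KMT19147 came next, with a fitted log2 fold change of 1.62 ± 0.39 beside d = 1.05 at 320 min. Its fitted values at 40 and 1280 min were -0.80 and -0.58, past 0.5 in size on that scale. Over the set, the fitted log2 fold change was at least 0.5 in size for 1 feature at 40, 80 and 160 min each, and for 4 at both 640 and 1280 min.

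**Figure D2:**
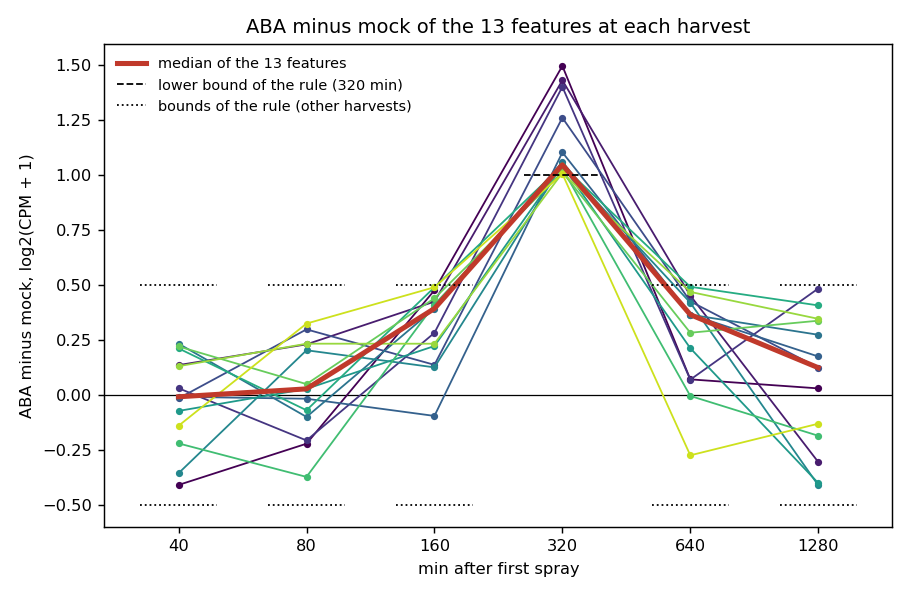
ABA minus mock, in log2(CPM + 1), of the 13 features at each harvest (thin lines, dark to light by d at 320 min), with their median (thick red line) and the bounds of the rule (dashed and dotted). The median lies near 0 at the first harvest, then at 0.39 (160 min), 1.05 (320 min), 0.37 (640 min) and 0.12 (1280 min).

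In most of the 13 features d lay above 0 at 160 and 640 min as well. The rule bounded d at these harvests, so the counts and calls in this paragraph are a description only. Within the bounds set by the rule, d was above 0 in 12 of 13 features at 160 min and in 11 of 13 at 640 min, against 6 to 8 of 13 at the remaining harvests. Over all 16461 features d was above 0 in 48.5% at 160 min and in 47.9% at 640 min. Its median over the set was 0.39 at 160 min and 0.37 at 640 min, close under the bound of 0.5. KMS99708 was also called higher with ABA at 160 min (fitted log2 difference 0.42 ± 0.14, edgeR; adjusted p = 0.0479) and at 640 min (0.48 ± 0.14, edgeR; adjusted p = 0.0183), where 8.55% and 11.2% of tested features were called higher. Beside it, 0 features of the set were called at a harvest other than 320 min in this fit. The shares of tested features called higher and lower were 0.125% and 0.00569% at 40 min, 4.08% and 1.84% at 80 min, and 23.3% and 22.2% at 1280 min, and those called lower were 5.06% at 160 min and 13.6% at 640 min. Its call at 160 min was lost in 19 of 29 alternatives, with adjusted p from 0.03 to 0.37, while the fitted log2 difference ran from 0.30 to 0.56 over the 29. At 640 min the call was lost without mock replicate 1, mock replicate 2 or ABA replicate 1 of that harvest, within a range of adjusted p from 0.00503 to 0.0738, with fitted log2 differences of 0.50 to 0.52 where it was lost.

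Membership was decided close to the bounds. The 3 features just inside the bound on d at 320 min had 1.01, 1.01 and 1.01, and the 3 just outside had 0.97, 0.97 and 0.96. The largest size of d at any other harvest was 0.49, 0.49 and 0.48 in the 3 features just inside that bound, and 0.50, 0.51 and 0.51 in the 3 just outside, the first of these by a margin in the third decimal. In all, 754 features had d of at least 1 at 320 min, and in each of them both ABA libraries lay above both mock libraries. Of these, 587 were past 0.5 in size at 160 min, 608 at night (640 min) and 596 in the next morning (1280 min), and 685 were past it at 2 or more of the other harvests. Only the 13 described here (1.72%) were past it at none. The same rule with the direction turned gave 38 features lower with ABA at 320 min alone, and the rule moved to 640 min gave 16 features higher at night alone.

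In most of the 13 features mock leaves departed further from their neighbouring harvests at 320 min than ABA leaves did. The level at 320 min was compared with the mean of the levels at 160 and 640 min in the same treatment. In mock leaves this deviation ran from -1.44 to 0.09 with a median of -0.73 on the log2(CPM + 1) scale, and it was below 0 in 11 of 13 features. In ABA leaves it ran from -0.66 to 0.99 with a median of 0.23. Over all 16461 features the medians were 0.00 in mock and 0.02 in ABA leaves. The gap between the 2 medians follows from the rule. Its division between the treatments rests on the same 320 min libraries that chose the features, so it is a description only.

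In 7 features mock leaves were more than 0.5 below the mean of their neighbouring harvests while ABA leaves stayed within 0.5 of theirs. In 4 features ABA leaves were more than 0.5 above that mean while mock leaves stayed within 0.5 of theirs. A fall into the night can give such a value without a high point. KMS99708, among the 4, fell in ABA leaves from 95.1 CPM at 160 min to 71.3 CPM at 320 min and 21.3 CPM at 640 min. KMT20685 and KMT16527, also among the 4, rose little to 320 min in ABA leaves and fell far into the night. At 160, 320 and 640 min their ABA means were 24.5, 29.3 and 8.16 CPM in KMT20685. In KMT16527 they were 11.3, 13.2 and 5.40 CPM. KMT19113, also among the 4, passed the count minimum only through the ABA libraries of 320 min. KMT19147, with its high level at 640 min, was more than 0.5 below in both treatments, and KMT10039 was in none of these classes. Over all features, 5.97% were of the first class and 3.73% of the second. KMT20685 had the highest ABA deviation, 0.99 beside 0.09 in mock leaves, and KMT19147 the lowest mock deviation, -1.44 beside -0.66 in ABA leaves. KMT03534 had -1.38 in mock and -0.16 in ABA leaves.

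Where the low point sits depended on the reference harvests. Against the 3 earlier harvests of 40, 80 and 160 min the median deviation was -0.55 in mock and 0.51 in ABA leaves, about equal in size. Against all 5 other harvests the ABA median was 0.39. Without ABA replicate 1 of 320 min the ABA median was -0.0705. The mock side was below 0 in each of these settings. Mock leaves had their lowest level of all 6 harvests at 320 min in 9 of 13 features, where 18.2% of all 16461 features did. In KMT19113, KMT11275 and KMS95462 this was a near tie with another harvest, for KMT11275 a mean of 7.94 CPM against 8.08 CPM at 40 min. In KMT12584 and KMT10039 a single mock library of another harvest lay below both mock libraries of 320 min. These held 16.4 CPM at 640 min in KMT12584 and 0.538 CPM at 160 min in KMT10039. ABA leaves had their lowest level at 320 min in 0 of 13 features, where 14.9% of all features did. They had their highest level then in 4 of 13 features, where 18.8% of all features did. The rule favours low mock and high ABA levels at 320 min, so these counts are a description only.

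Between 160 and 320 min mock leaves went down in 12 of 13 features, with a median difference of -0.82, and ABA leaves in 7 of 13, with a median of -0.14. From 320 to 640 min the mock level went up in 10 of 13 features (median 0.57), and the ABA level in 5 of 13 (median -0.04). Over all features the 4 medians lay between -0.02 and 0.01. These differences between harvests include the libraries that chose the features, so no test is attached to them.

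**Figure D3:**
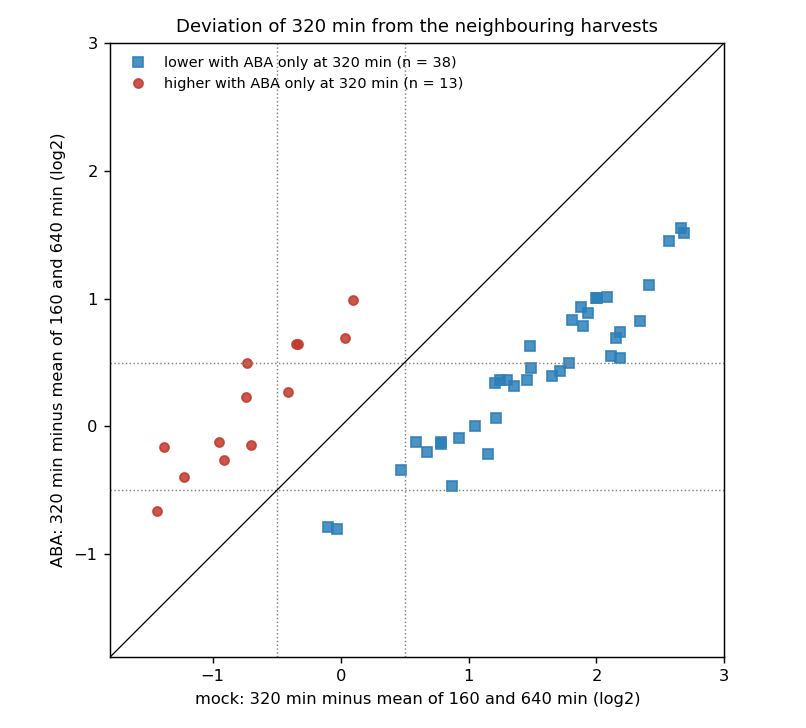
Level at 320 min minus the mean of 160 and 640 min, in log2(CPM + 1), in mock leaves (horizontal axis) and ABA leaves (vertical axis). Red circles are the 13 features higher with ABA only at 320 min and blue squares the 38 lower only then; the diagonal marks equal deviations and the dotted lines mark 0.5 in size. Red circles spread along both the left and the upper side, and the squares lie mostly at high mock deviations.

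The 38 features that were lower with ABA only at 320 min were the counterpart in mock leaves. Their mock deviation had a median of 1.57, and it was above 0.5 in 35 of 38. Their ABA deviation had a median of 0.44, also above 0. In both sets the wider deviation was in the mock leaves at the median. The 2 sets were chosen by opposite signs of the same difference, and no test of their difference in this respect was made.

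The level averaged over ABA and mock leaves at the harvests other than 320 min was not used by the rule and could be tested. The levels of all 13 features differed among 40, 80, 160, 640 and 1280 min (edgeR quasi-likelihood F-test, adjusted p from 4.53e-13 to 0.0411), and 86.6% of all tested features did too, so change over the day is not a mark of this set. The largest of these adjusted p belongs to KMT19113, which passed the count minimum only through the ABA libraries of 320 min. Without KMT19113 the largest was 0.00399 in the same test. The span between the highest and lowest of the 5 harvests had a median of 1.38 on the log2(CPM + 1) scale in the set and 0.95 over all features. The features of the set were highest at different times of day. At 160 min 4 of 13 were highest, KMT19113 among them, where 11.8% of all features were. At 640 min 4 were highest, where 29.1% of all features were. In the next morning (1280 min) 4 were highest, where 29.9% were, and in the first harvest 1, where 18.8% were.

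**Figure D4:**
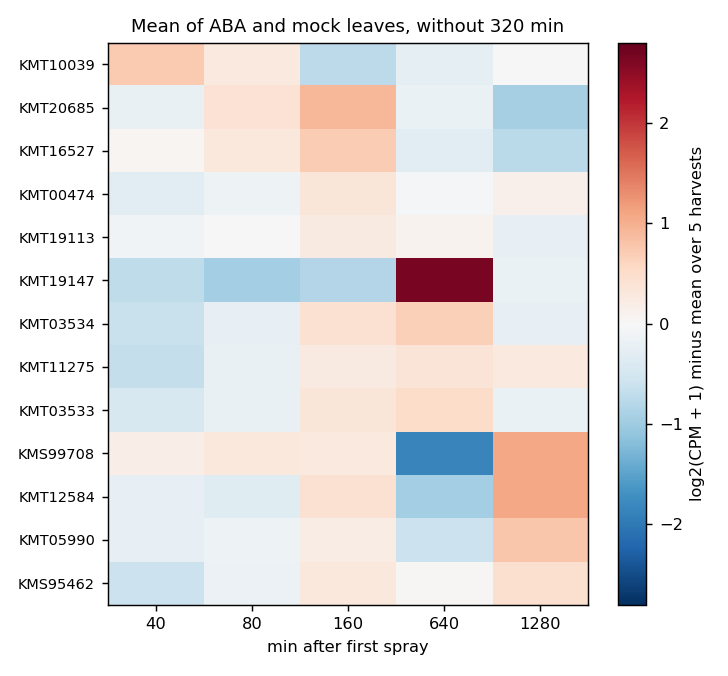
Mean log2(CPM + 1) of ABA and mock leaves at the 5 harvests other than 320 min, minus the mean over those harvests, for each of the 13 features (rows ordered by the harvest of the highest level). Red is above and blue below the feature's own mean. KMT19147 is high at 640 min, and KMS99708 and KMT12584 are low there and high at 1280 min.

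From 40 to 160 min, averaged over ABA and mock leaves, 8 of 13 features rose and 1 fell, where 22.3% of tested features rose and 23% fell, and 4 did not pass the test. The median log2 fold change was 0.78 in the set and 0.02 over all tested features. KMT20685 rose most, from a range of 7.55 to 11.5 CPM in the 4 libraries of 40 min to 14.5 to 26.0 CPM in those of 160 min, a fitted log2 difference of 1.21 ± 0.23 (SE, edgeR; adjusted p = 0.000337). In mock leaves alone this change had an adjusted p of 0.0502. KMT03534 rose from 16.4 to 23.6 CPM at 40 min to 31.6 to 48.8 CPM at 160 min, a fitted log2 difference of 1.10 ± 0.13 (edgeR; adjusted p = 3.78e-06). The feature that fell was KMT10039, from 4.04 to 5.15 CPM at 40 min to 0.538 to 1.67 CPM at 160 min, a fitted log2 difference of -2.13 ± 0.38 (edgeR; adjusted p = 0.000234). In mock leaves alone 6 of 13 features rose and 1 fell, where 12.4% of tested features rose and 14.5% fell.

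From 160 to 640 min, from light into night, 6 of 13 features fell and 1 rose, where 24.3% of tested features fell and 25.1% rose, and 6 did not pass the test. KMS99708 fell most, from 64.4 to 97.2 CPM at 160 min to 14.9 to 21.6 CPM at 640 min in the 4 libraries of each harvest, a fitted log2 difference of -2.19 ± 0.10 (SE, edgeR; adjusted p = 3.18e-12). KMT12584 fell from 42.6 to 69.3 CPM at 160 min to 16.4 to 27.7 CPM at 640 min, a fitted log2 difference of -1.40 ± 0.28 (edgeR; adjusted p = 0.000533). KMT19147 alone rose, from 0.592 to 1.08 CPM at 160 min to 16.0 to 24.5 CPM at 640 min, a fitted log2 difference of 4.49 ± 0.28 (edgeR; adjusted p = 2.23e-10).

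From 640 to 1280 min, from night into the next morning, 4 features rose and 6 fell, where 31.1% of tested features rose and 34.1% fell, and 3 did not pass the test. KMS99708 rose most, to between 118 and 163 CPM, a fitted log2 difference of 3.01 ± 0.11 (SE, edgeR; adjusted p = 2.21e-14). KMT12584 rose to between 64.1 and 186 CPM, a fitted log2 difference of 2.14 ± 0.28 (edgeR; adjusted p = 4.76e-06), and its highest value came from 1 ABA library while the other held 64.1 CPM. KMT19147 fell back to between 0.978 and 2.53 CPM, a fitted log2 difference of -3.37 ± 0.26 (edgeR; adjusted p = 1.29e-09), and KMT03534 fell to between 22.7 and 29.2 CPM, a fitted log2 difference of -0.93 ± 0.13 (edgeR; adjusted p = 4.42e-06). Of the 4 other features named here, 2 had fallen into the night and rose by morning. KMT19147 had risen into the night and fell by morning.

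The scaling decided much of the membership. With library size alone, d of all features had a median of 0.21 at 320 min, 0.18 at 640 min and 0.56 at 1280 min, in place of -0.01, -0.02 and 0.04 with TMM. With library size alone 17 features met the rule, of which 3 were among the 13, since 8 of the 13 were then past 0.5 at 640 min and 7 at 1280 min, each of them upward. All 13 still had d of at least 0.5 at 320 min in that scaling, with a median of 1.30. The step from 160 to 640 min then had 5 features that rose and 4 that fell in place of 1 and 6, where 58.2% of tested features rose and 9.54% fell, beside a median log2 fold change of all tested features of 0.58. In that scaling the step from 640 to 1280 min had 3 that rose and 8 that fell in place of 4 and 6, where 14.6% of tested features rose and 61.4% fell, beside a median of -0.74.

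Single libraries moved the calls at 320 min and the membership of the set. ABA replicate 2 lay above ABA replicate 1 in 9 of 13 features at 320 min, and mock replicate 2 above mock replicate 1 in 10 of 13, with median differences of 0.09 and 0.10 on the log2(CPM + 1) scale. Leaving out any of the mock or ABA libraries of 320 min left a group without replicates, and some of the 13 were then not called higher there. The shares of all tested features called in these fits are not given here, so the lost calls are not read as particular to the set. The fitted log2 differences stayed close to their full values in the calls lost without a mock library for KMT12584 (1.53 and 1.42, in place of 1.47), KMT10039 (2.06 and 2.13, in place of 2.09) and KMT19147 (1.53, in place of 1.62). For KMT20685 they were 1.22 and 0.91, in place of 1.06. The mean difference between replicates in the 10 groups of the other harvests, which the rule did not use, had a median of 0.27 in the set and 0.21 over all features. Leaving out mock replicate 1 of 160 min left 6 features that met the rule, 5 of them among the 13, and leaving out ABA replicate 1 of 320 min gave 24, 11 of them among the 13.

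KMT03533, named after its values were seen, has the identifier just before that of KMT03534. Its mock libraries held 13.1 and 15.0 CPM and its ABA libraries 30.7 and 28.7 CPM at 320 min (d = 1.03), and its levels followed those of KMT03534 over the 24 libraries (Pearson r = 0.98 on the log2 scale, a description over libraries that share harvests and scaling). Whether the 2 features share reads is not known here, and they may not be separate observations.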

How the data were processed

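The authors deposited 1 list of raw counts per feature for each of the 24 libraries, per the files' values. Features without reads are not listed and were taken as 0. CASAVA, Trimmomatic and DESeq2 are listed, with neither role nor version, per the submitters' processing notes. No source used here names the aligner, counter or reference or says whether strand was used, so near-identical or overlapping features may share reads. Per the labels' protocols the libraries were strand-specific and from polyadenylated RNA. No pair of libraries was identical.

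The rule was applied to TMM-scaled CPM of the 16461 features with a mean of at least 10 counts (R 4.3.3, edgeR 4.0.16), with a pseudocount of 1 CPM. For tests, edgeR's filter by group (minimum count 10) kept 17561 features, all 13 described ones among them. TMM factors ran from 0.66 to 1.70. A robust quasi-likelihood model with 12 group means and 12 residual degrees of freedom was fitted to all 24 libraries. Tests were two-sided, with Benjamini-Hochberg adjustment over all tested features and a threshold of 0.05. SE values restate the test: the size of the fitted log2 difference over the root of F. Groups of 2 libraries limit the precision.

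The features and the tests were chosen with earlier results of these data known. Named features had the 2 largest values of d at 320 min, the 2 highest mean CPM, the most extreme ABA and mock deviation, or, in each step between harvests, were the 2 that rose and the 2 that fell most among those called with all 4 libraries of one harvest on one side. Alternatives covered scaling, pseudocount, filters, bounds of the rule, DESeq2 1.42.0, a replicate block and leaving out each library. The fits were run on simulated counts and the rule on constructed levels, and nothing is read from those runs here. The simulated counts held no changes between harvests beyond the planted ones. Libraries of the same number in a harvest did not deviate together at each harvest (correlations from -0.14 to 0.13), so replicate numbers were not treated as pairs.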

Additional observations from a re-analysis of the deposited data

How the results depend on the processing

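The number of features that met the rule was 2 with a bound of 0.4 at the other harvests, 28 with 0.6, 39 with d of at least 0.8 at 320 min and 4 with at least 1.2, and between 6 and 24 when single libraries were left out. With a pseudocount of 0.5 CPM it was 14 (7 shared with the 13), with 2 CPM 9 (5 shared), and with relative log expression factors 12 (11 shared). The mock median deviation at 320 min was -0.94 with library size alone and -0.55 against 40, 80 and 160 min, and it lay between -0.87 and -0.59 without single libraries. The ABA median was 0.51 against 40, 80 and 160 min and 0.39 against all 5 other harvests, and between -0.0705 and 0.24 without single libraries.

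Between 9 and 13 features were called at 320 min without single libraries. At other harvests 9 features were called with library size alone, 2 with a replicate block, and 0 to 3 without single libraries. The count at other harvests was added as a result with alternatives after seeing the data. The shares of all tested features called in these settings are not given here, so nothing about the set is read from these counts. With library size alone d of all features had a median of 0.18 at 640 min and 0.56 at 1280 min. With the replicate block 9 features changed from 640 to 1280 min in place of 10, where 30.4% of tested features rose and 33.7% fell. The counts for 320 min and for the other steps were as without it. DESeq2 called 10 features from 40 to 160 min in place of 9, where 21.7% of tested features rose and 23.9% fell. Without single libraries the median log2 fold change of the set ran from 0.77 to 0.82 for 40 to 160 min. It ran from -0.52 to -0.27 for 160 to 640 min and from -0.23 to -0.02 for 640 to 1280 min. Of 310 recomputed fold changes of the features named for these steps, 0 changed direction and 1 lost its call. Features with few counts, such as KMT19113, are limited by depth.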
